A study of Danio rerio with 6 samples.

Results

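The genes described here are those of the cytosolic ribosomal proteins and their paralogs in red fluorescent protein (RFP)-positive blood progenitors of zebrafish (Danio rerio) embryos. Members were all gene IDs whose symbol begins with rpl or rps and a digit, or is rplp0, rplp1, rplp2 or rpsa, in any case, with the rps6k kinase genes left out. This rule, which uses no expression value, took 83 of 32520 gene IDs: 45 of the large subunit, 36 of the small subunit, and RPL7L1 and rps19bp1. In human cells the proteins of the latter pair are known as a factor of large-subunit assembly and a binding partner of RPS19, so they are counted as members but not as subunit proteins. RNA-seq had been carried out at 20 h post fertilization on 3 control libraries and 3 libraries of genotype blf-/-; drl 4KO, below called mutant, each from 30000 cells. All embryos carried RFP in a gene-trap allele of blf, which served to sort the cells, after Liberase digestion. The controls are blf-/- in the sample genotype field and blf+/- in the series design, so the groups differ either in the drl genes alone or in both. The labels do not say which 4 genes the drl 4KO removes, nor whether the replicates are separate clutches or sorts. The p-values therefore reflect only how these libraries spread, which may be technical.

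The ribosome is built from a small subunit, which reads the messenger RNA, and a large subunit, which joins amino acids and holds the P stalk that recruits translation factors. Most ribosomal proteins are needed in about the same number of copies per ribosome. In vertebrates most ribosomal protein messages carry a 5' terminal oligopyrimidine tract through which TOR signalling sets their translation. Red cell precursors depend heavily on ribosomal proteins: in humans, loss of 1 copy of RPS19 and of several other ribosomal protein genes causes Diamond-Blackfan anemia. Zebrafish keep a few ribosomal protein genes as pairs, and some of these copies may share reads.

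Total counts ranged from 12751618 to 18101975. blf was at 2526 to 2835 CPM (read counts relative to the library's total, scaled with TMM factors) in the controls and 45.3 to 118 CPM in the mutants, and drl was at 543 to 624 and at 0 to 0.396 CPM. Markers of several cell types differed between the groups. Among all 14517 genes tested, 9.92% were called lower and 13% higher. Of 15 tested erythroid markers 14 were lower and 0 higher, with a summed level of 101544 to 130458 CPM in the controls and 12781 to 16885 CPM in the mutants. Of 18 myeloid markers 15 were higher (1375 to 1531 against 6651 to 8032 CPM summed), of 15 epidermal markers 10 (265 to 304 against 2315 to 3313 CPM), and of 12 endothelial, 12 skeletal muscle and 12 neural markers 6, 5 and 4. Of these 5 lists, the neural one alone held a marker called lower, GFAP (1.79 against 0.257 CPM). Markers are counted as gene IDs, and a single name could take several IDs. In the myeloid list mfap4 and cxcr4b did so, while mpx and mpeg1.1 matched none. No defining marker of these cell types that was matched was at 0 in any library. Of 21 cell cycle genes 17 were lower and 0 higher, with a summed level of 6090 to 6743 CPM in the controls and 2228 to 2627 CPM in the mutants. The part of these differences in the results below was not tested, and in bulk RNA fewer cells of a type and less RNA per cell cannot be told apart.

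Ribosomal protein genes fell together in the mutant cells. Of the 83 members, 81 passed the filter on low counts, and 72 of these fell, 1 (rps27l) rose and 8 did not pass the threshold of adjusted p = 0.05 (edgeR quasi-likelihood test). Over all 14517 genes tested, 9.92% were called lower and 13% higher. The median log2 fold change of the members was -0.80, against 0.11 for all genes, and the quartiles of the members were -0.91 and -0.70. The falls of called members ranged from 1.42-fold to 12.5-fold with a median of 1.75-fold, and 10 were at least 2-fold. The share of all genes that fell so far is not given here. On TMM-scaled CPM, 73 tested members had all 3 mutant libraries below all 3 controls, 1 had them all above and 7 overlapped. Over all genes on this scale, 19.8% lay without overlap below and 22.7% above. On CPM from library totals, 61 members lay below, 1 above and 19 overlapped. The shares over all genes were not counted on that scale. Without control replicate 2, 39 members were called lower and the median was -0.70 (5.38% of all genes lower). Members called lower numbered 72 without control replicate 1 and 49 without control replicate 3 (7.85% and 6.23% of all genes). They numbered 51, 48 and 73 without mutant replicates 1, 2 and 3 (6.85%, 7.57% and 7.41%).

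**Figure D1:**
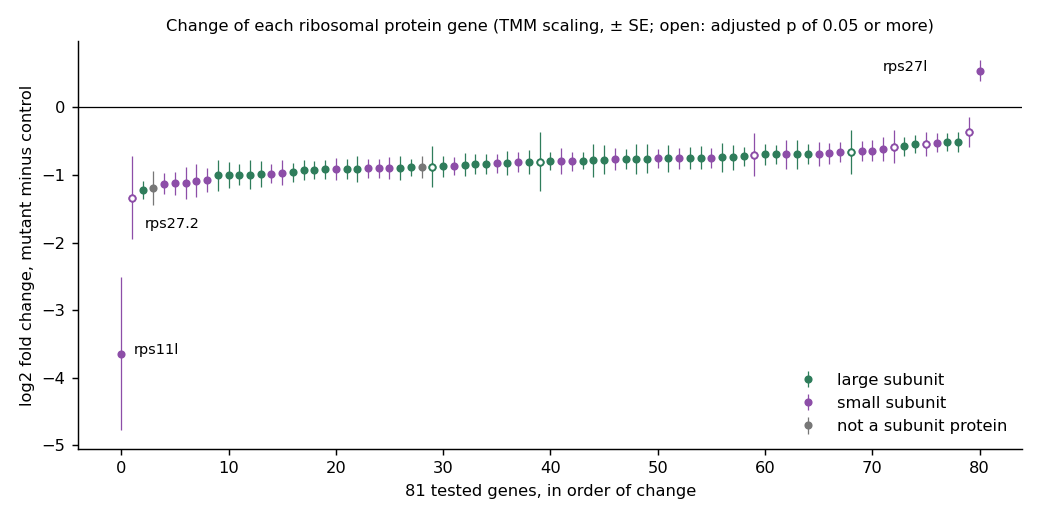
Log2 fold change (mutant minus control, TMM scaling) of the 81 tested genes in order of size, with the SE as bars. Large-subunit genes are green, small-subunit genes violet, RPL7L1 and rps19bp1 grey, and genes that did not pass the threshold open. All but rps27l lie below 0, most of them between -0.91 and -0.70 or close by, and rps11l lies apart at -3.64.

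As a group, the members took 8.52%, 9.90% and 9.55% of all counts in control replicates 1, 2 and 3, and 6.79%, 6.49% and 7.12% in mutant replicates 1, 2 and 3. The groups did not overlap (9.32% ± 0.718 against 6.80% ± 0.316, SD, n = 3 each; exact permutation test, two-sided, p = 0.1, the smallest that 3 against 3 allows). Globin genes took 18.9% ± 1.19 of the control counts and 4.47% ± 0.862 of the mutant counts, so that more of a mutant library was left to other genes. With globin and mitochondrially encoded genes left out of the totals, the members' share was 12.2% ± 1.04 in the controls and 7.61% ± 0.404 in the mutants, again without overlap (exact permutation p = 0.1).

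**Figure D2:**
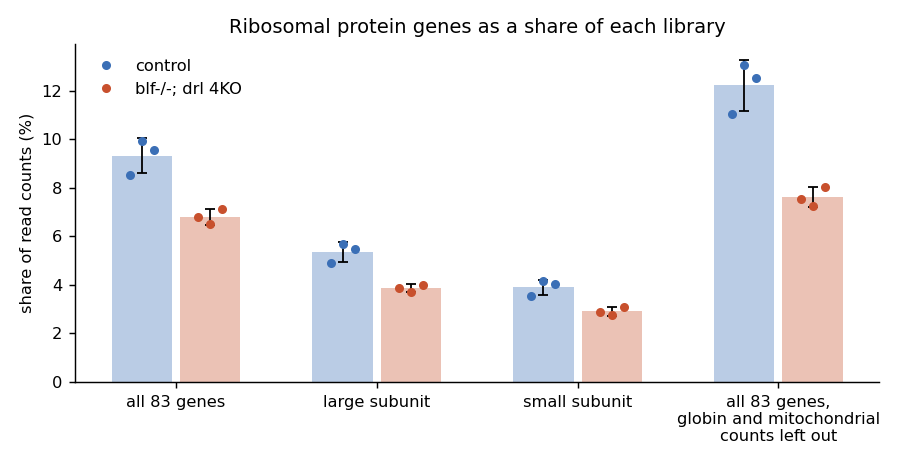
Share of read counts (%) taken by all 83 genes, by each subunit, and by all 83 genes after globin and mitochondrially encoded counts were left out. Points are libraries, bars are group means and error bars SDs (n = 3). In all 4 panels each mutant library lies below each control library.

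How many genes passed depended on how the libraries were scaled and which genes were tested. With library totals in place of TMM factors, 53 members were lower and 1 higher (6.61% of all genes lower), and their median was -0.48 while that of all genes was 0.42. The same change of scaling turned 1440 lower and 1887 higher calls over all genes into 959 and 2402. With RLE factors 73 members were lower (10.4% of all genes), with upper-quartile factors 74 (11.6%), and with totals that leave out globin and mitochondrially encoded genes 72 (8.88%). DESeq2 called 75 members lower (14.5% of all genes) and limma-voom 74 (11.4%). When genes under 10 CPM in more than 3 libraries were dropped, 73 of 80 members were lower (18.7%), and a replicate block gave 69 (8.8%). Without any filter 40 of 83 were lower (3.4%). The members' median stood 0.91 (log2) below that of all tested genes with TMM factors. Another scaling shifts all genes alike and so leaves this gap nearly as it is by construction. The gap was 0.77 with the filter at 10 CPM and 0.54 without any filter.

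**Figure D3:**
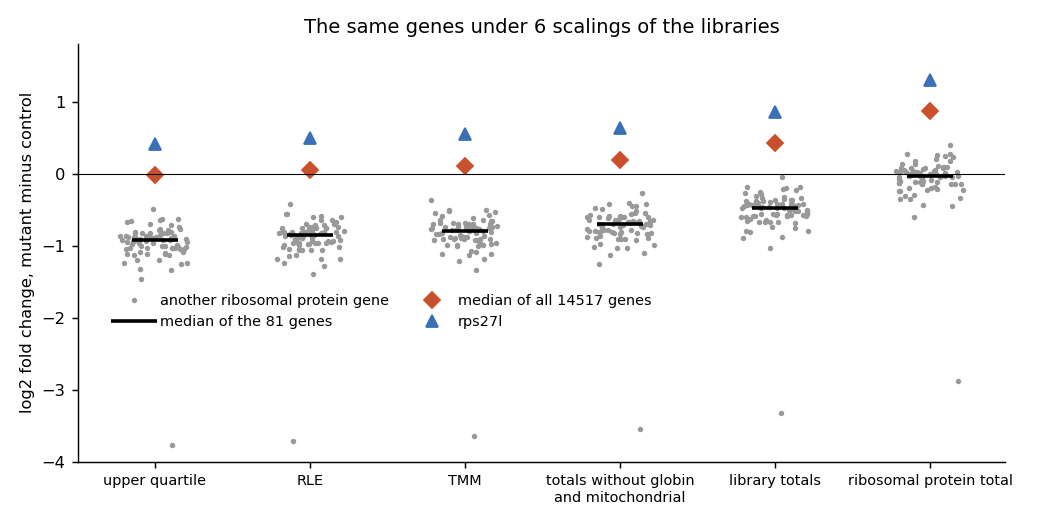
Log2 fold change (mutant minus control) of the 81 tested genes under 6 scalings of the libraries, with their median (bar), the median of all 14517 genes (diamond) and rps27l (triangle). The members' median moves from -0.92 with upper-quartile factors to -0.03 when scaled to their own total, and the diamond moves with it.

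With TMM factors, genes of the large subunit fell with few exceptions. Of 44 tested, 41 fell, 0 rose and 3 did not pass (median -0.80), while 9.92% of all genes were called lower and 13% higher. With library totals 29 of the 44 were lower (6.61% of all genes), and without control replicate 2, 21 were (5.38%). RPL3, a core protein near the peptidyl transferase center, had levels of 3735, 4687 and 4391 CPM in the controls, against 2649, 2555 and 2212 CPM in the mutants. All 3 mutant libraries lay below the controls, and RPL3 fell 1.73-fold (log2 fold change -0.79, SE 0.13, edgeR adjusted p = 0.00136). RPL4, which lines the exit tunnel of the nascent chain, fell from 3648 ± 626 to 2040 ± 161 CPM (SD, n = 3). RPL7 and RPL19 fell 1.74-fold and 1.62-fold. RPL35, which sits at the tunnel exit, had one of the smaller falls (log2 fold change -0.50, SE 0.15, edgeR adjusted p = 0.0311), and was at adjusted p = 0.263 with library totals.

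The P stalk, which binds elongation factors, held the largest fall among called members with a mean of at least 10 CPM. RPLP0, its base, was at 2425, 2967 and 2764 CPM in the controls and 1289, 1151 and 1067 CPM in the mutants. It fell 2.33-fold (log2 fold change -1.22, SE 0.13, edgeR adjusted p = 9.19e-05), and it was past the threshold in each of 15 alternatives other than scaling to the members. Its partners also fell: RPLP1 from 1927 ± 272 to 992 ± 65.5 CPM (1.94-fold) and rplp2 from 561 ± 39.9 to 307 ± 34.9 CPM (1.83-fold). Whether the falls of these genes differ was not tested. The gene rplp2l, a second rplp2 gene that the symbol rule leaves out, was at log2 fold change -0.67 (SE 0.22, edgeR adjusted p = 0.0468), and at adjusted p = 0.211 with library totals.

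RPL5 and RPL11 join the 5S RNA before they enter the large subunit. RPL5 has 2 gene IDs in the name table, without a way to tell which is rpl5a. The one with more counts (ENSDARG00000020197) fell from 2028 ± 304 to 1228 ± 78.4 CPM, and the other (ENSDARG00000015862) from 1285 ± 252 to 725 ± 106 CPM. RPL11 was at 2780, 3563 and 3642 CPM in the controls and 2269, 2249 and 2517 CPM in the mutants. The groups did not overlap on this scale but did on CPM from library totals. The fall of RPL11 was among the smallest (log2 fold change -0.51, SE 0.13, edgeR adjusted p = 0.0184) and was at adjusted p = 0.188 with library totals. It was also at 0.125, 0.118, 0.101 and 0.0933 without control replicates 2 and 3 and mutant replicates 1 and 2.

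In the small subunit 29 of 35 tested genes fell with TMM factors, 1 rose and 5 did not pass (median -0.79), beside the same 9.92% and 13% of all genes. With library totals 22 of the 35 were lower (6.61% of all genes), and without control replicate 2, 16 were (5.38%). rps20, in the head of the subunit, took 6.67% ± 0.00839 of the members' counts in the controls and 6.75% ± 0.246 in the mutants. It was at 5895, 7727 and 7383 CPM in the controls and 4071, 3727 and 4647 CPM in the mutants, a fall of 1.69-fold (edgeR adjusted p = 0.00229). Its libraries thus kept the order of the whole group, with control replicate 1 the lowest control. RPS10 and RPS15, also of the head, had larger falls, of 2.18-fold and 2.17-fold (log2 fold change -1.13 and -1.12, SE 0.16 and 0.17, edgeR adjusted p = 0.000497 and 0.000879). RPS2, at the entry of the messenger RNA channel, fell 1.43-fold, from 4036 ± 644 to 2813 ± 190 CPM (edgeR adjusted p = 0.0182), and was at 0.203 with library totals. RPS7 fell 1.82-fold and RPS3A 1.78-fold.

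The balance between the subunits changed little. Summed counts of the small subunit were 0.723, 0.728 and 0.733 times those of the large subunit in the controls and 0.741, 0.743 and 0.770 times in the mutants. The mutant libraries were all higher, by 1.03-fold on average (exact permutation test, two-sided, p = 0.1, the smallest possible). On the mean log2 CPM of each subunit, which weights genes equally, the difference had the opposite sign and the groups overlapped (-0.02, exact permutation p = 0.4).

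Of the 8 tested genes that did not pass, 7 had their highest mutant level in mutant replicate 3, as did 61 of all 81 tested members. RPS29 was at 203, 262 and 255 CPM in the controls and at 108, 94.1 and 242 CPM in the mutants, and RPL38 at 88.4, 124 and 109 against 58.6, 43.0 and 102 CPM. In both genes mutant replicates 1 and 2 lay well below the controls and mutant replicate 3 among them. RPS28, near the exit of the messenger RNA channel, followed the same order at 995, 1424 and 1421 against 908, 721 and 1356 CPM (log2 fold change -0.36, SE 0.22, edgeR adjusted p = 0.275). RPS21, RPL29 and rps27.2 were also highest in mutant replicate 3 among the mutants. Proteins of RPS21, RPS28, RPS29 and RPL38 are among the shorter ones of the ribosome. Shorter proteins among the other members were not counted, and a link to length was not tested. Without mutant replicate 3, RPL29, RPS21, RPS29, RPL38 and rps27.2 were past the threshold (edgeR adjusted p = 0.00748, 0.0302, 0.00708, 0.0417 and 0.0473), and RPS28 was not (0.0663). Leaving out the highest mutant library lowers the mutant level by construction, so these values are no separate result. None of these genes passed when any other single library was left out. RPL9, which also did not pass, was at 46.2, 86.4 and 74.0 against 66.6, 20.5 and 31.3 CPM. In RPL9 mutant replicate 1 lay among the controls, and without that library the gene was at adjusted p = 0.049 (edgeR). That library was also its highest mutant one. With another single library left out, RPL9 was at adjusted p = 0.157 to 0.494 (edgeR).

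The 2 untested members had almost no reads. The ID listed as RPL26 had 14 counts over the 6 libraries, too few for a comparison. Why so few reads were assigned to this ID was not tested.

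Set against the members' own total, the composition of the ribosomal protein messages was nearly the same in both groups. With the summed counts of the 83 genes as library size, 78 of 81 log2 fold changes lay within 0.5 of 0 and 67 within 0.25. This scaling centres the members by construction, so their median of -0.03 is no result, and only the spread around it is. At adjusted p = 0.05 over all genes (edgeR), 1 member was lower (3.1% of all genes lower) and 2 were higher (23.5% higher), and 10 had an unadjusted p under 0.05. rps27l was higher (log2 fold change 1.30, SE 0.17, adjusted p = 0.000294), RPL11 higher (log2 fold change 0.27, SE 0.09, adjusted p = 0.0433) and RPLP0 lower (-0.44, SE 0.12, adjusted p = 0.0200). Of 11 alternatives of this fit, rps27l was past the threshold in 11, with log2 fold changes of 1.21 to 1.46. RPLP0 was past it in 6, with adjusted p up to 0.164, and RPL11 in 3, with adjusted p up to 0.201. RPS28, RPS2, RPL35, RPS15 and RPS10, whose changes were among the smallest or largest above, did not pass (adjusted p = 0.0994, 0.0885, 0.0971, 0.0794 and 0.0898).

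**Figure D4:**
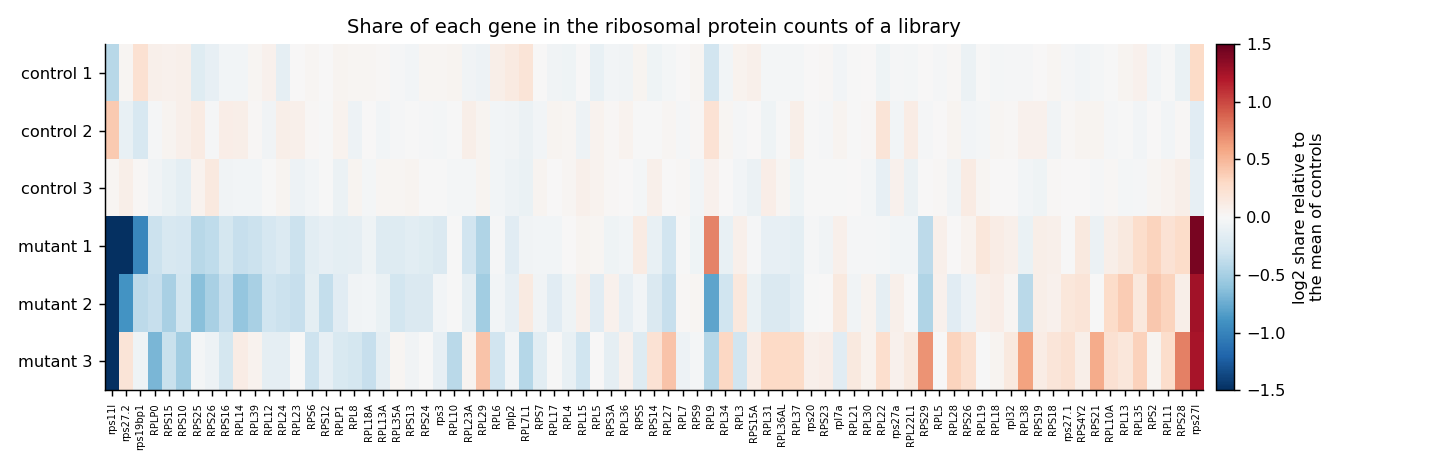
Share of 77 tested genes in the ribosomal protein counts of a library, as log2 relative to the mean of the controls, with genes ordered by their change and colors saturated beyond 1.5 in either direction. The columns of rps11l and rps27l stand out in all 3 mutant libraries, while RPL9, RPS29 and RPL38 differ between mutant libraries.

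rps27l was the member that went against the rest. It encodes a close paralog of RPS27. Its level was 299.9, 287 and 283 CPM in the controls, against 463, 374 and 433 CPM in the mutants, so that each mutant library was above each control. It rose 1.46-fold (log2 fold change 0.55, SE 0.16, edgeR adjusted p = 0.0286). The direction was the same in each of 15 alternatives other than scaling to the members, with log2 fold changes of 0.42 to 0.86. It was past the threshold in 7 of them, among them library totals (adjusted p = 0.00182), DESeq2 (0.0499) and limma-voom (0.0249). It was not with RLE factors (0.0600) or without control replicates 1, 2 and 3 or mutant replicates 1 and 3 (0.0587 to 0.142 over these 5), with upper-quartile factors (0.0649) or with a replicate block (0.0622). Over all genes 16.5% were called higher with library totals, 13.8% with totals without globin and mitochondrially encoded genes, 18.1% with DESeq2, 14.7% with limma-voom, 22.8% when low genes were dropped at 10 CPM, and 6.84% without any filter. The shares were 12.4% with RLE factors, 11.6% with upper-quartile factors and 11.4% with the block. Without control replicates 1, 2 and 3 they were 9.08%, 8.32% and 8.47%, and without mutant replicates 1, 2 and 3 they were 9.41%, 9.92% and 9.53%.

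The other genes of its family had lower levels in the mutants. rps27.1, which held most of the family's counts, was at 1286, 1722 and 1632 CPM in the controls and 908, 932 and 1138 CPM in the mutants (log2 fold change -0.64, SE 0.15, edgeR adjusted p = 0.0120, and 0.0757 with library totals). rps27.2 was at 21.4, 25.6 and 28.0 against 4.63, 6.96 and 18.1 CPM, and did not pass (adjusted p = 0.148). In both genes the mutant libraries lay below the controls. The share of rps27l in the family's counts ran from 14.1% to 18.7% in the controls and was at its highest, 33.7%, in mutant replicate 1. The groups did not overlap (15.8% ± 2.51 against 29.8% ± 3.40, SD, n = 3 each; exact permutation p = 0.1, adjusted p = 0.225 over 9 paralog shares). Summed over the family, the change was at log2 fold change -0.39 (SE 0.14, edgeR adjusted p = 0.0673).

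**Figure D5:**
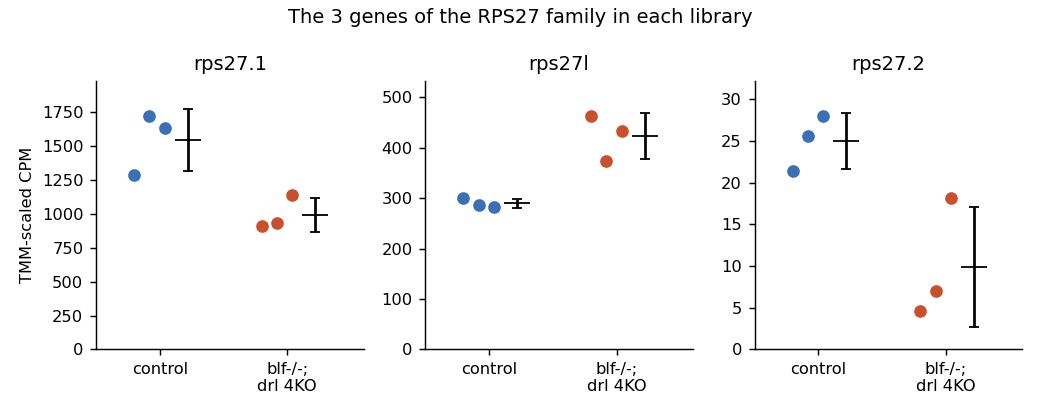
TMM-scaled CPM of rps27.1, rps27l and rps27.2 in each library (points), with group mean and SD (bars, n = 3); each panel has its own axis from 0. The mutant libraries lie above the controls for rps27l and below them for rps27.1 and rps27.2.

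In 8 families with at least 100 counts for a second gene, 9 shares were compared, and 4 had groups without overlap, each at the smallest possible exact permutation p = 0.1. Besides rps27l and rps27.2, these included the share of one RPS26 gene. It (ENSDARG00000037071) held 43.9%, 44.8% and 44.9% of the pair's counts in the controls and 37.4%, 37.5% and 39.1% in the mutants (adjusted p = 0.225 over the 9 shares, exact permutation). Both RPS26 genes fell, at log2 fold change -1.08 (SE 0.24, edgeR adjusted p = 0.00835) for this one and -0.70 (SE 0.22, adjusted p = 0.0394) for the other (ENSDARG00000030408). RPS26 lies at the exit of the messenger RNA channel, and the copies are alike, so reads may have been divided between them.

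rps11l was the lowest of the tested genes in counts, with 46, 105 and 68 reads in the controls and 12, 2 and 11 in the mutants. It fell at log2 fold change -3.64 (SE 1.14, edgeR adjusted p = 0.0395), and was at adjusted p = 0.0524 with library totals. It passed the filter on low counts through its control libraries, so its fall is no separate result. It is counted among the 72 members called lower with TMM factors, but was not tested with the filter at 10 CPM.

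In other pairs the shares overlapped between the groups. RPL22L1, the paralog of RPL22, held 41.2% ± 1.25 of the pair's counts in the controls and 41.3% ± 2.09 in the mutants (exact permutation p = 1), and both genes had a log2 fold change of -0.74. The less counted RPL5 gene held 38.6% ± 1.25 and 37.0% ± 2.03 (exact p = 0.3). The shares of rplp2l and RPL7L1 overlapped as well (exact p = 0.4 and 0.6).

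A list of 9 genes whose loss of 1 copy causes Diamond-Blackfan anemia in humans had a median change close to that of all members. The list was written after the values were seen, and its counts rest on which of these genes were chosen. It matched 12 tested gene IDs, of which 11 fell and 1 did not pass (median -0.77, range -1.13 to -0.51, against -0.80 for all members). Over all genes 9.92% were called lower. With library totals 8 of the 12 were lower (6.61% of all genes). RPS19, the gene found mutated most often, was at 887, 1209 and 1060 CPM in the controls and 656, 599 and 716 CPM in the mutants. RPS19 fell, with all mutant libraries below the controls (log2 fold change -0.68, SE 0.15, edgeR adjusted p = 0.00879, and 0.0491 with library totals). The one RPS19 neighbour by name, rps19bp1, fell 2.28-fold, with 224, 213 and 242 CPM in the controls and 67.6, 93.0 and 137 CPM in the mutants (edgeR adjusted p = 0.00679).

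Genes that work with the ribosome also had mostly lower levels. Of 28 tested partners, 23 fell and 0 rose (median -0.99), and 22 fell with library totals. RACK1, a scaffold on the small subunit, was at 1727 ± 236 CPM in the controls and 851 ± 54.3 CPM in the mutants (log2 fold change -1.02). FAU, which encodes RPS30 fused to a ubiquitin-like part, was at log2 fold change -0.90 (edgeR adjusted p = 0.00227). The translocation factor gene eef2b fell 2.80-fold and the poly(A)-binding protein gene pabpc1a 2.52-fold (edgeR adjusted p = 3.91e-05 and 0.000102). Of 36 ribosome assembly genes 30 fell and 0 rose (median -1.31), among them the nucleolar protein genes NOP58 (2.80-fold) and NOP10 (3.30-fold). Of 75 mitochondrial ribosomal protein genes, 21 were lower and 2 higher (median -0.60), and 10 were lower and 3 higher with library totals. Over all genes 9.92% were called lower and 13% higher, and with library totals 6.61% and 16.5%. The differences between these lists were not tested.

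Of 20 tested genes of TOR signalling and the Myc network, 3 fell and 2 rose (median -0.28), near the shares over all genes of 9.92% lower and 13% higher. larp1b, of the La-related proteins that bind terminal oligopyrimidine messages, had a level of 587 ± 43.2 CPM in the controls and 147 ± 32.8 CPM in the mutants, 3.99-fold lower (edgeR adjusted p = 4.48e-05). eif4ebp1, which encodes a repressor of cap-dependent translation, rose, with 409 ± 43.7 CPM in the controls and 814 ± 102 CPM in the mutants (log2 fold change 0.99, SE 0.16, edgeR adjusted p = 0.00118). Of the same repressor family, EIF4EBP3 (ENSDARG00000041607) fell (log2 fold change -0.62, SE 0.18, edgeR adjusted p = 0.0301, and 0.218 with library totals). EIF4EBP2 and eif4ebp3 were at log2 fold changes of 0.33 and -1.24 and did not pass (edgeR adjusted p = 0.385 and 0.0788). The Myc gene mych fell 4.42-fold, at low counts (43.0 ± 7.59 to 9.73 ± 6.27 CPM, edgeR adjusted p = 0.0231), while the gene listed as MYC with more counts (ENSDARG00000007241) was at 86.0, 94.2 and 112 CPM in the controls and 91.0, 95.2 and 69.1 CPM in the mutants and did not pass (adjusted p = 0.610). The other gene listed as MYC (ENSDARG00000045695) rose at low counts (5.79 ± 4.18 against 29.2 ± 10.9 CPM, edgeR adjusted p = 0.0326).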

How the data were processed

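RNA-seq counts of 3 control and 3 mutant libraries were used. The authors deposited whole-number read counts for each Ensembl gene ID, with HISAT2 2.2.1, SAMtools 1.10, featureCounts 1.6.0 and the GRCz11 build named in the submitters' processing notes. Not given in the sources used here are the annotation release and how strand and multi-mapped reads were handled. The counts of close copies, which carry no molecular identifiers, may be divided between them. A table of Ensembl IDs and symbols named 89.8% of the IDs. Many are in capitals and are printed as listed. No sequence or coding length was used, so counts and CPM are not corrected for length. Paralog shares, subunit ratios and ranks by mean CPM thus compare read counts of different genes, not numbers of messages.

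edgeR 4.0.16 (R 4.3.3) was run on all genes as a quasi-likelihood fit without covariates (TMM factors, filterByExpr, robust estimation of dispersion), with Benjamini-Hochberg adjustment at 0.05. The SE is the log2 fold change divided by the square root of F. The composition fit used the summed member counts as library size. Shares were compared by exact permutation (scipy 1.17.1). The tests were run on simulated counts in which a small random set of genes, or the members alone, was changed. These counts did not copy the shift in globin counts, so they do not show how the calls depend on scaling. DESeq2 1.42.0 and limma 3.58.1 (voom) were alternatives. No pair of replicates looked like a library deposited again, since their counts differed beyond sampling noise. The chi-square for each degree of freedom was 38.1 to 45.4 between controls and 70.0 to 78.5 between mutants.

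Members and lists were chosen with earlier results of these data known. Named members were the 5 highest of each subunit by mean CPM, those that rose, the 5 largest and 5 smallest changes from 10 mean CPM, paralogs, departures from the member total, P stalk genes, rpsa, RPL5, RPL11 and RPS19. No ID has the symbol rpsa, and the one listed as RPSA2, outside the symbol rule, was at log2 fold change -1.12 (adjusted p = 0.000522, edgeR). Of the other lists, up to 3 genes of smallest p could be named. Further genes were named after their values were seen. A few members and listed genes enter the counts but are not reported here by name.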

Additional observations from a re-analysis of the deposited data

How the results depend on the processing

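Members called lower numbered 72 with TMM factors (9.92% of all genes), 40 with no filter (3.4%) and 10 with a 2-fold minimum. They numbered 1 when scaled to the member total (3.1%), and 39 to 73 without 1 library (5.38% to 7.85%). Members called higher numbered 1, but 0 with RLE or upper-quartile factors, summed paralog families, an adjusted p of 0.01 or a 2-fold minimum, 2 when scaled to the member total, and 0 to 1 without 1 library. Over all genes 13% were called higher, 12.4% and 11.6% with RLE and upper-quartile factors, 23.5% when scaled to the member total, and 8.32% to 9.92% without 1 library. Shares over all genes are not given here for summed families, an adjusted p of 0.01 or a 2-fold minimum. The median log2 fold change was -0.80, -0.48 with library totals, -0.027 when scaled to the member total, and -0.96 to -0.69 without 1 library. The log2 change of the member share was -0.45, and -0.68 and -0.71 without globin and mitochondrial counts and without those and the erythroid markers, settings chosen after seeing the data. The subunit ratio differed by 0.05 (log2), and by -0.018 with genes weighted equally. Members departing from the member total numbered 1 lower and 2 higher, 0 lower with TMM factors over the members, and 1 higher with DESeq2, with no filter or with a replicate block; without 1 library they were 0 to 3 lower and 1 to 3 higher. The cause of these changes was not tested, except that scaling to the member total centres the members by construction.

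Replicate numbers are not shown to pair the libraries: deviations from the group means of same-numbered libraries correlated at 0.01, -0.04 and 0.00 across genes, and no control library correlated best with its own number. With the replicate block 69 members were lower and 0 higher (8.8% and 11.4% of all genes).

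Of 479 values of named members under other settings, 373 kept direction and side of the threshold and 13 changed sign, all when scaled to the member total: RPL19 0.081, RPL11 0.27, rps20 0.017, RPS2 0.27, RPL35 0.26, RPS28 0.40, RPL22L1 0.037, RPL22 0.033, RPL5 (ENSDARG00000020197) 0.054, rplp2l 0.079, RPS26 (ENSDARG00000030408) 0.077, rps27.1 0.14 and RPS19 0.10. Differences in paralog shares (percentage points) changed sign without 1 library for RPL22L1 (range -1.01 to 1.05) and RPL7L1 (-1.43 to 0.263). Naming members by RefSeq symbol and levels per coding length were not run, since the tables used pair no Ensembl ID with a RefSeq gene. Low counts limit rps11l, rps27.2 and RPL26.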

Other observations

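The proportions among ribosomal protein messages varied more between the mutant libraries than between the controls. Such counts were not made over all genes, so this is not shown to be particular to the members. In mutant replicate 3, 18 of 81 tested members stood more than 0.25 (log2) above their mean share in the mutants and 4 below it. In control replicates 1, 2 and 3, 1, 1 and 0 members stood so far above their mean share in the controls, and 2, 0 and 0 below. The largest such deviations in mutant replicate 3 were those of rps27.2 (1.01), rps11l (0.79), RPS29 (0.73), RPL29 (0.61) and RPL38 (0.58). Mutant replicate 2 had 10 members more than 0.25 below and 1 above, and mutant replicate 1 had 4 below and 2 above. Control replicate 1 had the lowest TMM-scaled level among the controls for 79 of 81 tested members. Its proportions stayed close to those of the other controls, with a median deviation of 0.03 (log2). The summed levels of the partner, assembly, erythroid and cell cycle lists were also lowest in control replicate 1 among the controls. Those of the endothelial, skeletal muscle and neural lists were not.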
